A study of Rattus norvegicus with 12 samples.

Results

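The 10 genes described here, Aif1, C1qa, C1qb, C1qc, Pf4, Csf1r, Cx3cr1, Tyrobp, Trem2 and Cd68, are known microglia and macrophage genes, and they were followed as a readout of microglial RNA in rat hippocampal neuron cultures. They were chosen by symbol from the deposited table, in which each has 1 row, and they make up 10 of the 10729 genes kept. Neurons came from the hippocampus of CD (Sprague Dawley) rat embryos of both sexes at stage E18.5 (embryonic day) and were grown as neuron-enriched cultures in neurobasal medium with B27. All cultures were infected on day 1 in vitro with a pLKO.1 lentivirus and given 1 µM tetrodotoxin (TTX), which blocks sodium channels and with them action potentials, on day 5 for 48 h. The 4 groups of 3 libraries each were KD_TTXwd (Grin3a shRNA, 6 h after TTX was withdrawn), Ctrl_TTXwd (empty vector, 6 h after withdrawal), KD_TTX (Grin3a shRNA, collected in TTX) and Ctrl_TTX (empty vector, collected in TTX), all harvested on day 7. The series asks how GluN3A, the NMDA receptor subunit encoded by Grin3a, bears on the transcription that returning activity induces. The labels name no promoter that would restrict the virus to a cell type, the knockdown used 1 hairpin named in the labels, and the labels give the control as the empty vector, while the deposited table names the control columns scr, which the sources used here do not explain.

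Microglia are the resident macrophages of the brain. They come from yolk sac progenitors rather than from the neural lineage, depend on the receptor CSF1R for survival, clear debris and synapses with the help of complement C1q, and survey neurons through the fractalkine receptor CX3CR1. The genes are shown as FPKM, the authors' fragments scaled to transcript length and library size, which corrects for transcript length and lets levels of different genes be compared. In whole-culture RNA, fewer microglia and less RNA of a gene per microglial cell cannot be told apart.

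PU.1, the lineage transcription factor of macrophages and microglia, binds purine-rich sites around GGAA, and a 7-letter form of its motif is shown in 2 of the promoters because the 10 genes moved together. RefSeq promoter windows (build GRCr8, 250 bases before to 50 after the gene start) were at hand for 6 of the 10 genes, while Aif1, C1qc, Pf4 and Tyrobp had no entry. GAGGAAG or its reverse complement CTTCCTC was found in 3 of these 6 windows (Cd68, Csf1r and Trem2) and in 12.4% of all 27457 promoter windows. The AP-1 motif TGAGTCA (or TGACTCA) was found in 1 of 6, Cd68, and in 4.53% of all windows, and the TFEB E-box CACGTG in 0 of 6 and in 6.65% of all windows. The motifs share no bases with each other in the windows printed. The Cd68 window, chr10:54882392-54882691 on the minus strand, holds the PU.1 letters on the coding strand, starting 4 bases past the gene start. The Trem2 window, chr9:20151730-20152029 on the minus strand, holds them on the opposite strand, starting 30 bases before the gene start (position -30). Only these 7 letters were searched, and shorter or variant forms of the motif were neither counted nor marked. Capitals mark the PU.1 letters, and both windows run 5′ to 3′ along the gene. A match of letters is a description of the window and no evidence of binding.
Cd68: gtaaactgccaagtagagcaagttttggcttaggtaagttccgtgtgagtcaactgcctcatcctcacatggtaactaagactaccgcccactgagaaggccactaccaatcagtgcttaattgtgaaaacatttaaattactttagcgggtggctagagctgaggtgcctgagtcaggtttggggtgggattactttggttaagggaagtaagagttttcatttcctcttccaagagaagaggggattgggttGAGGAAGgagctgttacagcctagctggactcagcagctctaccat
Trem2: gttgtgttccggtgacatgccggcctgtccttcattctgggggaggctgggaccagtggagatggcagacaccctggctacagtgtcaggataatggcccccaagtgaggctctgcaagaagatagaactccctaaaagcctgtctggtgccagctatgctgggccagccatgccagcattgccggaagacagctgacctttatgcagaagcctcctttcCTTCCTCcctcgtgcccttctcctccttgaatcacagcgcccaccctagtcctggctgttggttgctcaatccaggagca

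The targeted gene checked the labels first. After withdrawal, Grin3a measured 5.22, 3.32 and 2.50 FPKM in KD_TTXwd, against 13.8, 19.8 and 4.88 FPKM in Ctrl_TTXwd. In TTX it measured 9.30, 6.01 and 4.77 FPKM in KD_TTX, against 18.6, 18.2 and 23.0 FPKM in Ctrl_TTX. The library labelled Ctrl_TTXwd replicate 3, with 4.88 FPKM, lay inside the range of the knockdown libraries, and it is the library with the highest microglial levels below. It also had the lowest sum of 13 pan-neuronal genes, 1268 FPKM, against 2859 and 4602 FPKM in Ctrl_TTXwd replicates 1 and 2. Whether the low neuronal level accounts for its Grin3a value was not tested. By limma, Grin3a differed by -1.48 in TTX on the log2(FPKM + 1) scale (SE 0.41, unadjusted p = 0.0036, adjusted p = 0.936). After withdrawal the limma difference was -1.42 (SE 0.41, unadjusted p = 0.00465, adjusted p = 0.301). The adjusted values account for every gene tested. The authors' Cuffdiff test marked Grin3a as lower with knockdown in both states. Its log2 fold changes there were -1.58 in TTX and -1.80 after withdrawal (Cuffdiff q = 0.00102 for each). Summed over all genes kept, FPKM came to between 428070 and 517703 a library. Read numbers are unknown, so no counting error can be given. The table appears to hold only genes with at least 1 FPKM in Ctrl_TTX replicate 1, since its lowest value is 1.00 there and 0 to 0.0436 in the other libraries. Libraries of a group are biological replicates per the labels, which do not tell whether each came from its own culture, so p-values measure only the spread between these samples.

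The 3 C1q genes encode the chains of the complement initiator C1q, which tags synapses and debris for removal, and lie side by side on the minus strand of rat chromosome 5 (build rn5, C1qb at 159008942 to 159014492, C1qc at 159017523 to 159020850 and C1qa at 159023752 to 159026600). C1qa measured 72.1, 6.52 and 98.05 FPKM in KD_TTXwd replicates 1 to 3, 168.4, 19.1 and 315.6 FPKM in Ctrl_TTXwd, 125.5, 121.3 and 37.2 FPKM in KD_TTX and 72.8, 95.8 and 44.9 FPKM in Ctrl_TTX. Replicate 2 was the lowest of both withdrawal groups, replicate 3 was the lowest of both TTX groups, and the 4 groups overlapped. C1qb measured 67.05, 7.77 and 102.3 FPKM in KD_TTXwd, 145.8, 20.2 and 324.0 FPKM in Ctrl_TTXwd, 105.5, 80.4 and 30.7 FPKM in KD_TTX and 48.7, 63.6 and 31.5 FPKM in Ctrl_TTX. C1qc measured 39.6, 4.45 and 61.2 FPKM in KD_TTXwd, 146.6, 12.8 and 175.3 FPKM in Ctrl_TTXwd, 158.2, 119.1 and 36.0 FPKM in KD_TTX and 78.9, 96.0 and 44.7 FPKM in Ctrl_TTX. Both followed C1qa in which library was high or low within each withdrawal group, and each spanned its whole range, 41.7-fold for C1qb and 39.4-fold for C1qc, between KD_TTXwd replicate 2 and the library labelled Ctrl_TTXwd replicate 3.

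Among the surface receptors, Csf1r (chromosome 18, 55662899 to 55689297) encodes the receptor for the survival factors CSF1 and IL-34. Csf1r measured 21.8, 2.35 and 28.1 FPKM in KD_TTXwd, 27.6, 4.32 and 88.9 FPKM in Ctrl_TTXwd, 32.5, 20.2 and 6.35 FPKM in KD_TTX and 29.6, 20.4 and 10.3 FPKM in Ctrl_TTX. Its replicate 2 libraries were the lowest after withdrawal and its replicate 3 libraries the lowest in TTX. Cx3cr1 (chromosome 8, 127941652 to 127955411), the receptor for the neuronal chemokine fractalkine, was the lowest of the 10 genes on average, at 5.32 FPKM over the 12 libraries. It measured 2.27, 0.539 and 4.16 FPKM in KD_TTXwd, 5.50, 0.989 and 9.14 FPKM in Ctrl_TTXwd, 8.07, 7.23 and 1.74 FPKM in KD_TTX and 12.5, 7.84 and 3.78 FPKM in Ctrl_TTX. Its highest library was Ctrl_TTX replicate 1, not the library labelled Ctrl_TTXwd replicate 3, and all groups overlapped.

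Trem2 (chromosome 9, 13532919 to 13539372) encodes a lipid-sensing receptor that signals through the adaptor TYROBP, also called DAP12. Trem2 measured 4.06, 0.846 and 8.16 FPKM in KD_TTXwd, 9.79, 1.39 and 29.1 FPKM in Ctrl_TTXwd, 4.51, 8.33 and 3.30 FPKM in KD_TTX and 1.90, 4.98 and 2.104 FPKM in Ctrl_TTX. It was the only one of the 10 genes whose lowest Ctrl_TTX library was replicate 1 instead of replicate 3. Tyrobp (chromosome 1, 90031122 to 90034973) measured 49.9, 5.28 and 76.7 FPKM in KD_TTXwd, 110.7, 15.7 and 262.9 FPKM in Ctrl_TTXwd, 47.3, 44.0 and 20.7 FPKM in KD_TTX and 67.5, 34.7 and 16.3 FPKM in Ctrl_TTX. In FPKM, which corrects for length, the adaptor stood above Trem2 in all 12 libraries.

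Aif1 (chromosome 20, 7234608 to 7236508) encodes IBA1, the actin-bundling protein used to stain microglia. Aif1 measured 84.5, 8.90 and 97.02 FPKM in KD_TTXwd, 86.5, 15.6 and 349.6 FPKM in Ctrl_TTXwd, 48.7, 58.2 and 26.7 FPKM in KD_TTX and 75.9, 45.4 and 29.3 FPKM in Ctrl_TTX. Cd68 (chromosome 10, 56014363 to 56016243), a glycoprotein of late endosomes and lysosomes in phagocytes, measured 37.5, 3.93 and 44.3 FPKM in KD_TTXwd, 53.4, 8.83 and 150.5 FPKM in Ctrl_TTXwd, 84.4, 40.5 and 11.4 FPKM in KD_TTX and 192.8, 33.7 and 15.6 FPKM in Ctrl_TTX. Cd68 and Cx3cr1 were the 2 genes highest in Ctrl_TTX replicate 1, and the other 8 were highest in the library labelled Ctrl_TTXwd replicate 3. Pf4 (chromosome 14, 18758190 to 18758900), a chemokine of platelets that tissue macrophages also make, measured 59.0, 4.51 and 83.7 FPKM in KD_TTXwd, 125.8, 12.9 and 239.2 FPKM in Ctrl_TTXwd, 49.6, 44.2 and 14.6 FPKM in KD_TTX and 20.8, 22.8 and 11.6 FPKM in Ctrl_TTX. Pf4 had the widest range of the 10 genes, 53.0-fold between its lowest and highest library.

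**Figure D1:**
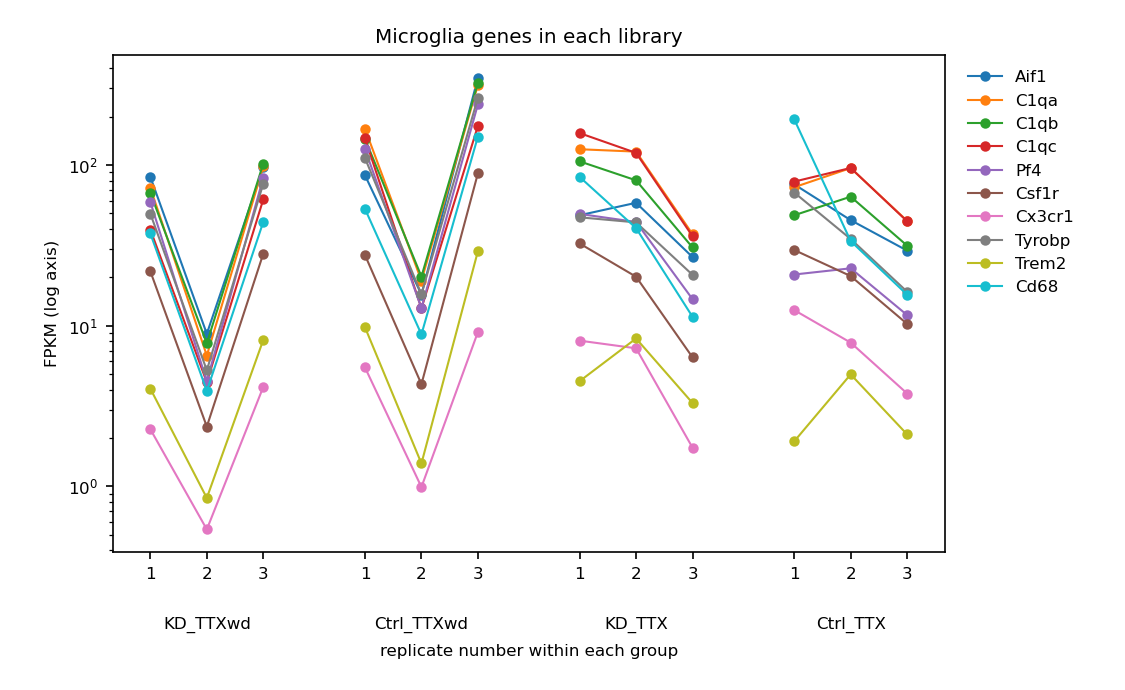
FPKM of each of the 10 microglia genes (log axis) in the 12 libraries, grouped by condition and numbered by replicate; each point is 1 library and lines only join the points of 1 gene within a group. All 10 genes are lowest in KD_TTXwd replicate 2, and 8 of 10 are highest in the library labelled Ctrl_TTXwd replicate 3.

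Summed, the 10 genes took 0.101%, 0.00956% and 0.141% of all FPKM in KD_TTXwd, 0.197%, 0.0233% and 0.426% in Ctrl_TTXwd, 0.146%, 0.122% and 0.0391% in KD_TTX and 0.116%, 0.0912% and 0.0433% in Ctrl_TTX. The highest library thus held 44.5 times the share of the lowest. The group means were 0.0838 ± 0.0674% in KD_TTXwd, 0.215 ± 0.202% in Ctrl_TTXwd, 0.102 ± 0.0561% in KD_TTX and 0.0835 ± 0.0370% in Ctrl_TTX (SD, n = 3 each), and all of these ranges overlapped. The Ctrl_TTXwd mean was 0.110% without the library labelled Ctrl_TTXwd replicate 3, and the KD_TTXwd mean was 0.0552% without its replicate 3. These are shares of RNA as FPKM and not of cells. Against 13 pan-neuronal genes, the sum came to 12.4%, 0.918% and 22.3% of the neuronal sum in KD_TTXwd, 30.8%, 2.43% and 153.3% in Ctrl_TTXwd, 16.3%, 14.8% and 4.30% in KD_TTX and 10.3%, 9.06% and 4.003% in Ctrl_TTX. The order of libraries within each group was the same on both scales.

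**Figure D2:**
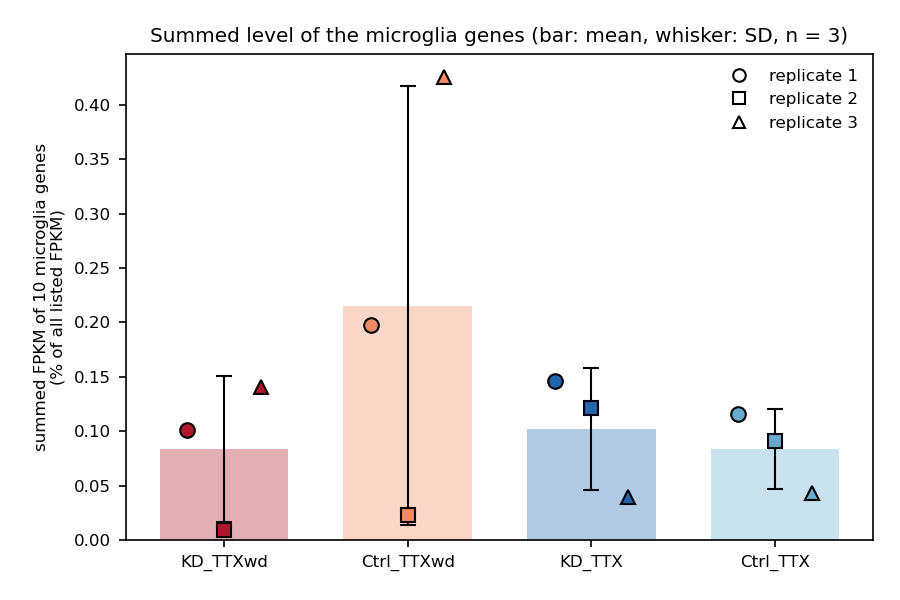
Summed FPKM of the 10 microglia genes as a percent of all listed FPKM; points are libraries (circle, square and triangle for replicates 1, 2 and 3), bars are group means and whiskers are SD (n = 3). The 3 Ctrl_TTXwd libraries run between 0.0233% and 0.426%, a range that holds every library of the other groups except KD_TTXwd replicate 2.

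Within a group the microglia genes varied far more than most genes. Their coefficients of variation had a median of 80.5% in KD_TTXwd, 94.8% in Ctrl_TTXwd, 52.7% in KD_TTX and 47.6% in Ctrl_TTX, where the medians of the 10689 genes tested were 14.4%, 19.6%, 15.7% and 23.0% in the same group order. All 10 genes lay above the 90th percentile of the genes tested in KD_TTXwd and in Ctrl_TTXwd, 8 did in KD_TTX and 4 did in Ctrl_TTX.

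The variation followed the replicate number, but in opposite ways in the 2 states. Replicate 2 was the lowest library of KD_TTXwd and of Ctrl_TTXwd for all 10 genes and of neither TTX group for any. Replicate 3 was the highest of both withdrawal groups for all 10 genes, the lowest of KD_TTX for all 10 and the lowest of Ctrl_TTX for 9. Over the 12 libraries, limma's F test of replicate number called 0 of the 10 genes, 0 of which had an unadjusted p under 0.05 (adjusted p = 0.584 to 0.659, and 0% of all genes called). Within the 6 withdrawal libraries it called 10 of 10 (adjusted p = 0.00322 to 0.0331), where 2.09% of all genes were called. Within the 6 TTX libraries it called 3 of 10 (adjusted p = 0.037 to 0.0832), where 4.07% of all genes were called. The direction of that difference with the number was seen before these tests were made. The 10 genes varied together, as given below, so their calls are not independent of each other. What a replicate number stands for is not given in the labels.

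The 10 genes varied together across libraries. Over the 45 pairs of genes and 12 libraries, Pearson's r of log2(FPKM + 1) ran between 0.567 and 0.98 with a median of 0.885, and Spearman's rho between 0.538 and 0.972 with a median of 0.832. By permutation with 100000 resamples and Benjamini-Hochberg adjustment over the 45 pairs, 43 pairs had an adjusted p under 0.05 for r and 42 for rho. Without the 2 libraries farthest from the median of the first gene of a pair, r had a median of 0.777 and went down to 0.243. The median r was 0.983 within the 6 withdrawal libraries and 0.733 within the 6 TTX libraries, where the lowest was -0.0807. All points share the same libraries, and the withdrawal values rest largely on the low replicate 2 libraries and the high replicate 3 libraries.

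For knockdown after withdrawal, the values of all 10 genes pointed one way. In same-numbered libraries the summed level in KD_TTXwd was 0.497, 0.403 and 0.311 times that in Ctrl_TTXwd for replicates 1, 2 and 3, although the numbers are not known to pair these libraries. All 10 genes were lower in 3 of 3 same-numbered pairs, a pattern that 23.2% of all genes tested showed. Of them C1qa, C1qb, C1qc, Pf4 and Tyrobp were below 50% in all 3 pairs, against 0.599% of all genes. The groups themselves overlapped for all 10 genes, where 9.03% of all genes had KD_TTXwd wholly below Ctrl_TTXwd. By limma 0 of 10 passed, 0 with an unadjusted p under 0.05, and 0.00936% of all genes (1 of 10689) passed. Their log2 differences ran between -1.57 (C1qc) and -0.78 (Cx3cr1) with a median of -1.19, where the median of all genes was -0.02 (adjusted p = 0.553 to 0.729). The standard error had a median of 1.04 for these genes and 0.23 for all genes. For C1qa, with -1.44, the 95% confidence interval thus ran between -3.79 and 0.91. This fit holds no replicate block, so its standard errors include the spread between replicate numbers given above. Fits with a block are given in the closing section. With the library labelled Ctrl_TTXwd replicate 3 left out, the median was -0.38, C1qc stood at -0.91 and C1qa at -0.62, while Aif1 and Csf1r turned to 0.19 and 0.08.

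In the authors' deposited table, all 10 genes were marked as lower in KD_TTXwd than in Ctrl_TTXwd at their q-value threshold of 0.05, as were 5.97% of all genes. The fold changes in the authors' deposited table ran between -1.67 (C1qc, q = 0.00102) and -1.17 (Cx3cr1, q = 0.0441) on the log2 scale. Those calls include the library labelled Ctrl_TTXwd replicate 3. The same genes thus passed in the authors' Cuffdiff test and not in limma on the library values.

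In TTX, knockdown went with no common direction. The summed level in KD_TTX was 1.11, 1.28 and 0.898 times that in Ctrl_TTX for replicates 1, 2 and 3. Pf4 and Trem2 were higher in all 3 same-numbered pairs, as were 18.8% of all genes, and Cx3cr1 was lower in all 3, as were 21.6%. By limma 0 of 10 passed, 0 with an unadjusted p under 0.05, and 0% of all genes passed. The log2 differences ran between -0.49 (Cx3cr1) and 0.82 (Pf4) with a median of 0.17, where all genes had -0.01 (adjusted p = 0.938 to 0.999). The replicate numbers pair these libraries by the check given below. With the number as a block within TTX and within withdrawal, 0 of 10 passed (limma adjusted p = 0.308 to 0.933), as did 0% of all genes. The standard errors of the 10 genes were then 0.19 to 0.31, against a median of 1.04 without the block. In the authors' deposited table, 0 of the 10 were marked, as were 2.16% of all genes.

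Withdrawal in control cultures gave values on both sides. The summed level in Ctrl_TTXwd was 1.46, 0.263 and 9.25 times that in Ctrl_TTX for replicates 1, 2 and 3. By limma 0 of 10 passed, 0 with an unadjusted p under 0.05, while 17.7% of all genes passed. The log2 differences ran between -0.71 (Cx3cr1) and 2.0 (Pf4) with a median of 0.66, where all genes had -0.01 (adjusted p = 0.224 to 0.996). Pf4, at 2.0, had a 95% confidence interval between -0.42 and 4.43, and without Ctrl_TTXwd replicate 2 it passed at 3.22 (limma adjusted p = 0.046), as did Trem2 at 2.25 (limma adjusted p = 0.04). With the library labelled Ctrl_TTXwd replicate 3 left out, the median was -0.28, Pf4 stood at 1.16 and 6 of the other 9 genes stood below 0, among them Cd68 at -1.06 and Cx3cr1 at -1.21. In the authors' deposited table, 7 of the 10 genes (Aif1, C1qa, C1qb, Pf4, Csf1r, Tyrobp and Trem2) were marked as higher in Ctrl_TTXwd, as were 9.03% of all genes. The largest fold change among them in the authors' deposited table was that of Pf4, 2.77 on the log2 scale (q = 0.00102).

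Withdrawal with knockdown mostly pointed down on average, but not in every same-numbered pair. The summed level in KD_TTXwd was 0.659, 0.083 and 3.20 times that in KD_TTX for replicates 1, 2 and 3. Every gene was lower in the replicate 2 pair (0.0374 to 0.153 times) and higher in the replicate 3 pair (1.70 to 5.72 times). By limma 0 of 10 passed, 0 with an unadjusted p under 0.05, while 14.2% of all genes passed. The log2 differences ran between -1.89 (C1qc) and 0.01 (Aif1) with a median of -0.59, where all genes had 0 (adjusted p = 0.245 to 0.998). With a library or a replicate number left out, only C1qc (-3.22 to -0.61) and Cx3cr1 (-1.95 to -0.28) kept their sign throughout. The other genes changed sign in some omissions, such as C1qa (-2.41 to 0.29). In the authors' deposited table, 2 genes, C1qc (-1.57 on the log2 scale, q = 0.00102) and Cx3cr1 (-1.29, q = 0.0226), were marked as lower, as were 13.6% of all genes. The difference between the withdrawal responses, knockdown minus control, had a median of -1.60 and ran between -2.12 (Pf4) and -0.29 (Cx3cr1), with a median of -0.75 once the library labelled Ctrl_TTXwd replicate 3 was left out. By limma 0 of 10 passed for that difference, 0 with an unadjusted p under 0.05 (adjusted p = 0.556 to 0.913), as did 0% of all genes. These comparisons share libraries, so their values are not independent of each other.

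**Figure D3:**
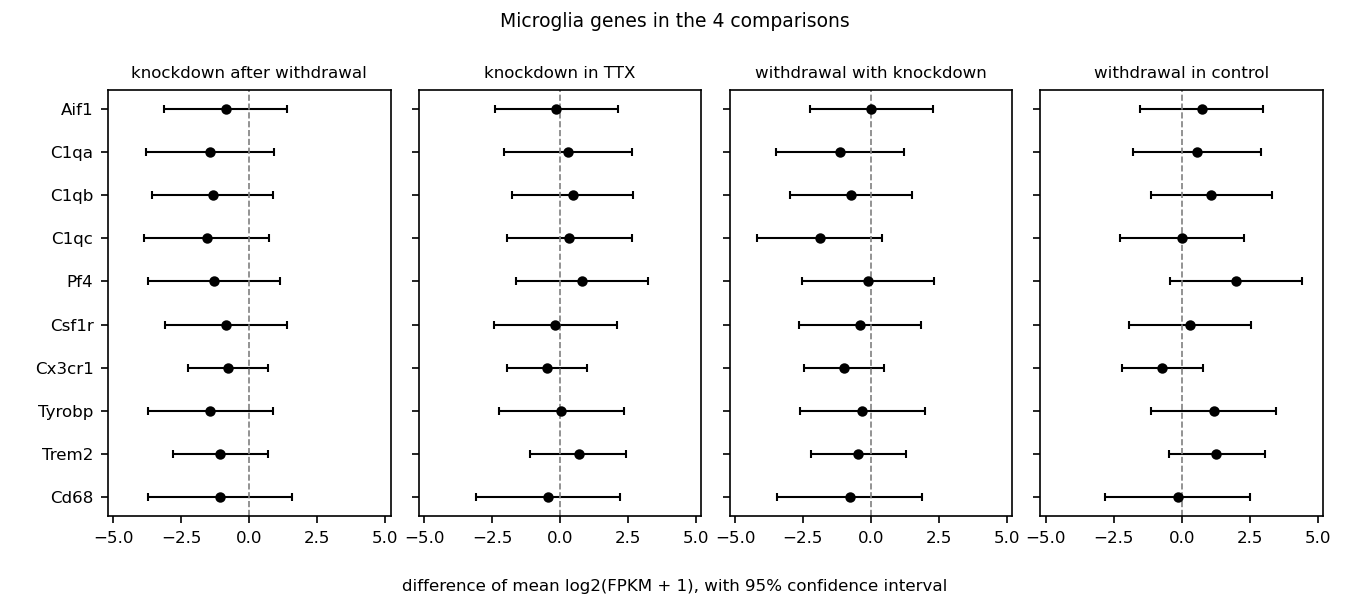
Difference of mean log2(FPKM + 1) for each microglia gene in the 4 comparisons, with 95% confidence intervals from limma fitted without a replicate block. The dashed line marks 0. After withdrawal all 10 knockdown differences lie below 0, between -1.57 and -0.78, and every interval in the 4 panels crosses 0.

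The makeup of the microglial sum differed between states, which was noticed in the values and is given without a test. If Pf4 and C1qa RNA come from the same cells, their ratio within a library does not depend on how much microglial RNA it holds. Whether they do was not tested. The ratio of Pf4 to C1qa was 0.818, 0.692 and 0.853 in KD_TTXwd and 0.747, 0.673 and 0.758 in Ctrl_TTXwd. In TTX it was 0.396, 0.365 and 0.394 in KD_TTX and 0.286, 0.237 and 0.259 in Ctrl_TTX. All 6 withdrawal libraries lay above all 6 TTX libraries, with means of 0.757 ± 0.0697 after withdrawal and 0.323 ± 0.0704 in TTX (SD, n = 6 each), a ratio of 2.35. It held in the libraries with the least and the most microglial RNA alike. The ratio of C1qb to C1qa also lay higher in all withdrawal libraries (0.866 to 1.19) than in all TTX libraries (0.663 to 0.841). That of C1qc to C1qa lay lower (0.549 to 0.871 after withdrawal, 0.970 to 1.26 in TTX). The 3 chains of C1q, whose genes are neighbours, thus did not keep a fixed ratio, and that of C1qb to C1qc was 0.994 to 1.85 after withdrawal and 0.617 to 0.852 in TTX.

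The other 6 genes overlapped between states when set against C1qa, so 3 of 9 did not. Over all 45 pairs of the 10 genes, 8 ratios did not overlap. The share among ratios of all genes was not computed, so these counts have no background beyond the myeloid list. Among 30 other myeloid genes set against C1qa, 1 (P2ry6, a nucleotide receptor) did not overlap, which is 3.33%, and none lay higher after withdrawal. Of the summed microglial FPKM, Pf4 took 10.01% to 14.3% after withdrawal and 3.46% to 8.14% in TTX, with no overlap. The share of Tyrobp did not overlap either, at 11.39% to 14.03% after withdrawal and 7.12% to 11.22% in TTX. The shares of all the other members overlapped. Cd68 stood at 2.65 times C1qa in Ctrl_TTX replicate 1 and at 0.306 to 0.673 times C1qa in the other 11 libraries. In that library Fcer1g, the Fc receptor gamma chain of myeloid cells, was also at its highest, 332.9 FPKM. So were some genes of other cells, such as the synaptic gene Snap25 (1016 FPKM, and 149.2 to 303.2 FPKM in the other libraries). The astrocyte water channel Aqp4 (584.3 FPKM) was too. Other genes of those cells were not. The astrocyte gene Fgfr3 was at its lowest there, 8.23 FPKM. The neuronal gene Tubb3 stood at 429.6 FPKM there, against 1120 and 1187 FPKM in Ctrl_TTX replicates 2 and 3.

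**Figure D4:**
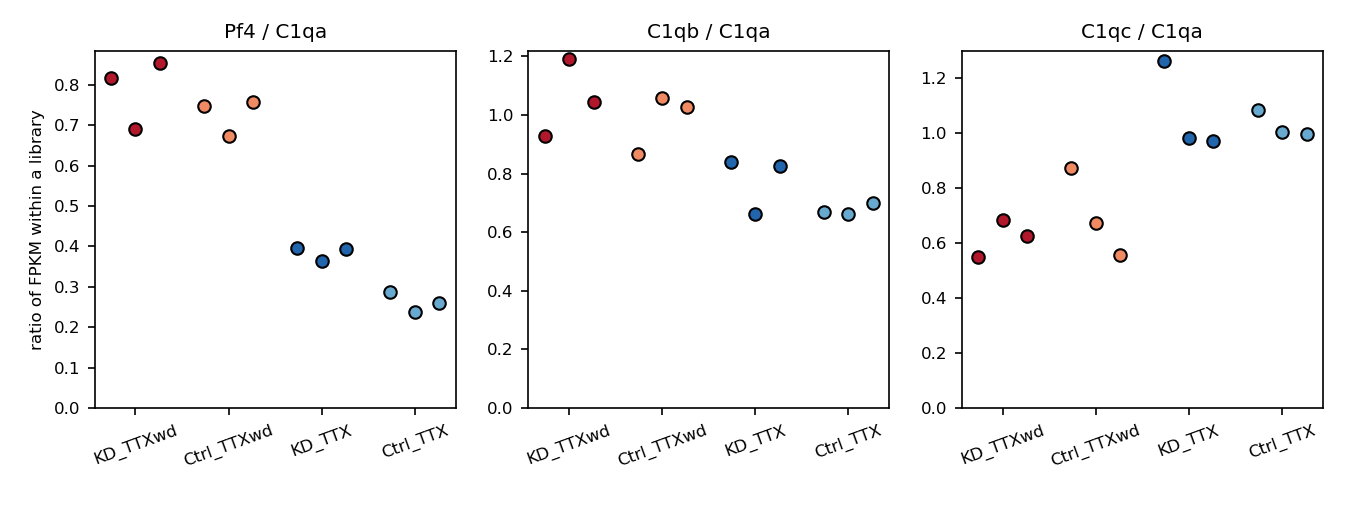
FPKM of Pf4, C1qb and C1qc divided by that of C1qa in the same library; each point is 1 library, in the order of its replicate number within the group. Pf4 and C1qb lie higher, and C1qc lower, relative to C1qa in all 6 withdrawal libraries than in all 6 TTX libraries.

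Other genes of the same cells carried the same pattern. Of 30 other microglia and myeloid genes tested, 17 correlated above 0.9 with the mean log2 level of the 10 genes over the 12 libraries, as did 179 of the 10689 genes tested. They included the lineage factor Spi1, which encodes PU.1 (r = 0.969), the lysosomal protease Ctss (0.981), the lysosomal membrane protein Laptm5 (0.966) and the purinergic receptor P2ry12 (0.924). P2ry12, which marks homeostatic microglia, reached 22.2 FPKM in the library labelled Ctrl_TTXwd replicate 3 and 0.809 FPKM in KD_TTXwd replicate 2. The list held 36 genes, of which 30 had a row among the genes kept, and Tmem119 had none under that symbol. Most other lists also held genes without a row. A signalling list held partners of TYROBP and CSF1R together with cytokine receptor genes such as Csf2ra. In it, 7 of 12 genes had r above 0.9, among them the kinases Syk and Lyn and the phosphatase Ptpn6, which averaged 9.58 FPKM. Of 6 border macrophage genes tested, Mrc1 (r = 0.97) and Folr2 (0.94) had r above 0.9, so these data do not separate parenchymal microglia from border macrophages. Of 14 monocyte, neutrophil, lymphocyte and platelet genes, 0 had a row among the genes kept. Since rows appear limited to genes with at least 1 FPKM in Ctrl_TTX replicate 1, a missing row does not show absence from the other libraries.

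Outside all the lists, the 10 genes most like the 10 microglia genes by Pearson's r over 12 libraries, among those averaging at least 2 FPKM, were Pld4 (0.996), Ggta1p (0.986), Rac2 (0.984), Ifi30 (0.983), Alox5ap (0.982), Capg (0.981), Ncf4 (0.98), C1r (0.976), Plbd1 (0.975) and Tcirg1 (0.975). Each of them was highest in the library labelled Ctrl_TTXwd replicate 3. Pld4, a phospholipase D family member of myeloid cells, ran between 1.67 and 50.8 FPKM. Rac2, the blood-cell Rac GTPase, ran between 2.39 and 95.02 FPKM. These coefficients describe likeness over libraries that share the same extremes, and they were ranked among all genes.

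By limma 0 of the 30 other microglia and myeloid genes passed in any comparison. Their median log2 differences were -0.75 for knockdown after withdrawal, -0.02 for knockdown in TTX, 0.59 for withdrawal in control and -0.22 for withdrawal with knockdown. The most abundant of them were Fcer1g, at 102.2 FPKM on average, and the lysozyme gene Lyz2, at 68.2 FPKM. Of 16 phagocytic and lysosomal state genes, the tetraspanins Cd63 (1.73, limma adjusted p = 0.00904) and Cd9 (1.38, limma adjusted p = 0.0113) rose with withdrawal in control, a share no larger than the 17.7% of all genes called. Apoe, a lipid carrier that astrocytes also make in bulk, fell with withdrawal in knockdown cultures (-2.27, limma adjusted p = 0.0151), and averaged 2231 FPKM. Of 6 border macrophage genes the transcription factor Maf fell there (-2.02, limma adjusted p = 0.0184). So did 1 of 12 genes of the signalling list, the cytokine receptor Csf2ra (-1.62, limma adjusted p = 0.0243), and 1 of 7 inflammatory genes, the NF-κB inhibitor Nfkbia (-0.87, limma adjusted p = 0.00582). These single calls stand against 14.2% of all genes called in that comparison, and none of the calls for withdrawal remained with replicate 2 left out of all groups. Of 11 ligands of microglia receptors 0 passed in any comparison, and the most abundant were Cd200, at 182.5 FPKM, and Gas6, at 109.9 FPKM. All other members of these lists did not pass in any of the 5 comparisons.

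Markers of the other cells in the cultures moved with the microglial level in some libraries. The sum of 13 pan-neuronal genes was 3529, 4911 and 2704 FPKM in KD_TTXwd, 2859, 4602 and 1268 FPKM in Ctrl_TTXwd, 4079, 3684 and 4388 FPKM in KD_TTX and 5860, 4694 and 5248 FPKM in Ctrl_TTX. Within both withdrawal groups the neuronal sum was highest in replicate 2, where the microglial sum was lowest, and lowest in replicate 3, where the microglial sum was highest. The sum of 11 astrocyte genes was 1956, 1092 and 1854 FPKM in KD_TTXwd, 2939, 1678 and 3188 FPKM in Ctrl_TTXwd, 3660, 1958 and 1438 FPKM in KD_TTX and 3833, 1875 and 1690 FPKM in Ctrl_TTX. It was lowest in replicate 2 of both withdrawal groups and in replicate 3 of both TTX groups, as the microglial sum was. The astrocyte sum spanned a far narrower range, and 0 of 11 astrocyte genes correlated above 0.9 with the microglia genes.

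By limma, 6 of 13 pan-neuronal genes fell with withdrawal in control, where 17.7% of all genes were called in either direction, among them the neuronal splicing factor Rbfox3 (-2.1, limma adjusted p = 0.00332) and the neurofilament Nefm (-1.79, limma adjusted p = 0.00739). So did 6 of 10 glutamatergic genes, among them Neurod2 (-2.05, limma adjusted p = 0.0152) and Zbtb20 (-1.81, limma adjusted p = 0.00327), both transcription factors. With withdrawal in knockdown cultures, 2 of 13 pan-neuronal genes (Rbfox3 and Elavl3) and 1 of 10 glutamatergic genes (Neurod2) fell, where 14.2% of all genes were called. With replicate 2 left out of all groups, 0 of all genes were called for withdrawal in either genotype, and with replicate 3 left out 4 were called for withdrawal in control. For knockdown 0 genes of any of these lists passed in either state. The part of these shifts in the microglial values was not tested.

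**Figure D5:**
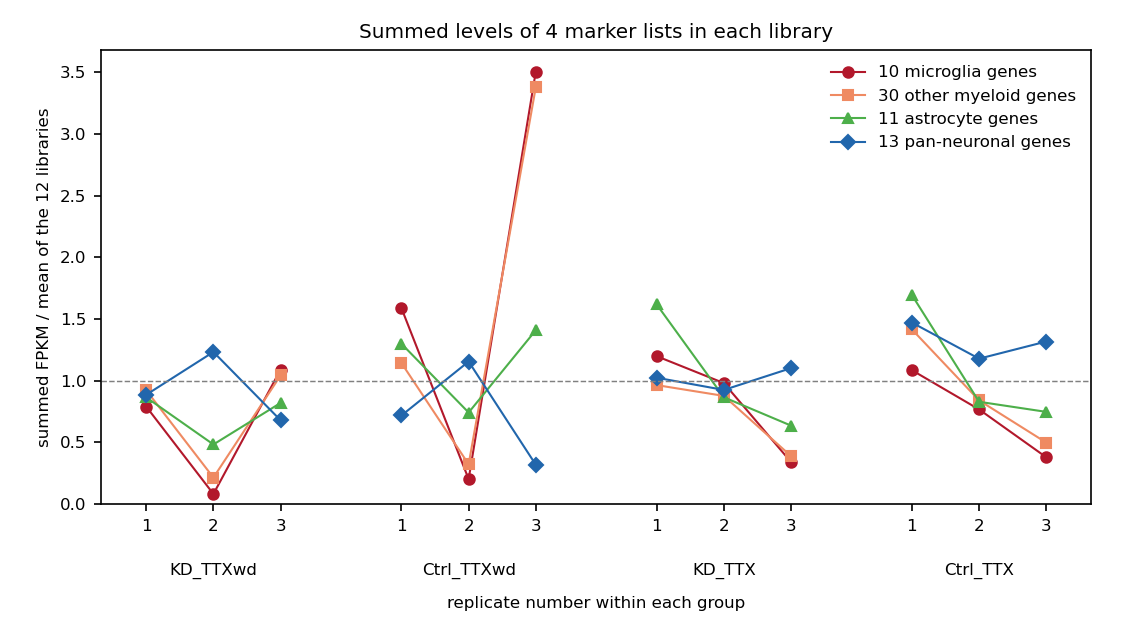
Summed FPKM of the 10 microglia genes and of 30 other myeloid, 11 astrocyte and 13 pan-neuronal genes in each library, divided by that list's mean over the 12 libraries (dashed line at 1); lines only join the points of 1 list within a group. In the library labelled Ctrl_TTXwd replicate 3 both myeloid lists stand highest and the neuronal list lowest, and in replicate 2 of both withdrawal groups the neuronal list stands above the other 3.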

How the data were processed

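Per the labels' protocols, polyadenylated RNA was read as 50 nt single ends from stranded libraries (12 libraries, 4 groups of 3). Per the submitters' processing notes, Trimmomatic, TopHat2, Cufflinks, Cuffdiff and build rn5 were used, and versions are not given in the sources used here. Levels are the FPKM that the authors deposited per library. The authors' log2 fold changes and q-values are deposited for each group comparison. Coordinates are as the deposited table gives them.

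Of 10730 genes, 1 was left out because its library mean was over 1% off the authors' group value. The 10689 genes with at least 1 FPKM in at least 3 libraries were tested on log2(FPKM + 1) with limma 3.58.1 (R 4.3.3; 1 coefficient per group, eBayes with trend). P-values are two-sided, adjusted by Benjamini-Hochberg over every gene tested, with a threshold of 0.05. A log2 difference on this scale understates the change of low genes. Replicate number was tested by limma's F with group in the model. Within 6 libraries that fit leaves 2 residual degrees of freedom. The fit was checked on simulated data. Figures used Python 3.11.15 and matplotlib 3.10.9.

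The members, lists and tests were chosen with earlier results of these data known. Named were all 10 members, up to 4 called genes and the 2 most abundant of each list (not all are printed), the 10 genes most like the members outside the lists, and Grin3a. P2ry12, Spi1, Ctss, Laptm5, Snap25, Aqp4, Fgfr3 and Tubb3, and the ratios to C1qa, were picked after their values were seen. Promoters are RefSeq windows of GRCr8.

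Same-numbered libraries were compared by the correlation over genes of their deviations from group means. KD_TTX and Ctrl_TTX gave 0.617, 0.436 and 0.667, which pairs them by the rule used here (over 0.1 in all 3), a reading of the values that no label states. Each other comparison had a pair at or under 0.1. KD_TTXwd and Ctrl_TTXwd gave -0.331, 0.875 and 0.563 for replicates 1, 2 and 3. Tried as alternatives were a pseudocount of 0.1, other filters and scalings, a robust variance model, replicate blocks, a fit of only the groups compared, and the omission of each library.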

Additional observations from a re-analysis of the deposited data

How the results depend on the processing

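Across the alternatives, the count of the 10 microglia genes past the threshold stayed at 0 in all 5 limma comparisons except in 2 settings. The numbers do not pair the withdrawal libraries by the check used. With the replicate number as a block within TTX and within withdrawal (chosen after seeing the data), knockdown after withdrawal had 5 of 10 genes lower (C1qa, C1qb, C1qc, Pf4 and Tyrobp, limma adjusted p = 0.0424 to 0.155 over the 10), where 0.842% of all genes passed. That block called 0 of 10 in TTX, and the block over all 12 libraries called 0 of 10 in every comparison. Without Ctrl_TTXwd replicate 2, 2 genes passed for withdrawal in control, and the counts over the left-out libraries ran between 0 and 2. The replicate number called 3 of 10 in the TTX libraries alone and 10 of 10 in the withdrawal libraries alone, against 0 over all 12. The median correlation between the genes was 0.733 in the TTX libraries and 0.777 without the 2 farthest libraries. All genes called ran between 0 and 2069 for withdrawal in control (1896 as reported) and between 0 and 2634 for withdrawal with knockdown (1514), with 0 reached when replicate 2 was left out of all groups, and between 0 and 90 for knockdown after withdrawal (1). Of 1190 single values of the 10 genes under an alternative, 1106 kept direction and side of the threshold, 7 newly passed and 77 changed sign. With a pseudocount of 0.1, C1qc for withdrawal in control stood at -0.01 and Aif1 for withdrawal with knockdown at -0.02. With quantile normalization, Cd68 for withdrawal in control stood at 0.01. For knockdown after withdrawal, the log2 differences with a library or a replicate number left out were -2.01 to 0.20 for Aif1 and -1.96 to 0.11 for Csf1r. For knockdown in TTX, the log2 differences with a library or a replicate number left out were -0.46 to 0.21 for Aif1, -0.01 to 0.85 for C1qa, -0.08 to 0.97 for C1qc, -0.64 to 0.45 for Csf1r, -0.89 to 0.06 for Cx3cr1, -0.45 to 0.54 for Tyrobp and -1.22 to 0.56 for Cd68. For withdrawal in control, the log2 differences with a library or a replicate number left out were -0.65 to 1.88 for Aif1, -0.53 to 1.99 for C1qa, -0.02 to 2.44 for C1qb, -0.96 to 1.42 for C1qc, -1.05 to 1.45 for Csf1r, -1.60 to 0.01 for Cx3cr1, -0.19 to 2.32 for Tyrobp and -1.83 to 0.92 for Cd68. For withdrawal with knockdown, the log2 differences with a library or a replicate number left out were -0.90 to 1.3 for Aif1, -2.41 to 0.29 for C1qa, -1.93 to 0.53 for C1qb, -1.40 to 1.34 for Pf4, -1.61 to 0.71 for Csf1r, -1.38 to 0.96 for Tyrobp, -1.23 to 0.48 for Trem2 and -2.11 to 0.36 for Cd68. For the difference between the withdrawal responses, the log2 differences with a library or a replicate number left out were -1.87 to 0.33 for Aif1, -1.79 to 0.27 for Csf1r, -0.96 to 0.21 for Cx3cr1 and -1.70 to 0.40 for Cd68. The cause of these changes was not tested. The fit without a block gave the 10 genes a median standard error of 1.04 on the log2 scale in each of the 4 group comparisons. With 3 libraries a group, the 95% confidence intervals of all 10 genes crossed 0 in that fit. With the block within TTX and within withdrawal, their standard errors were 0.19 to 0.31 for knockdown in TTX and for knockdown after withdrawal alike.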
